A study of Mus musculus with 11 samples.

Results

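The genes described here make cholesterol and fatty acids, or sense and move these lipids, in NSC34 cells that carry a Tardbp hairpin. Tardbp encodes TDP-43, which binds RNA and regulates splicing. The members were chosen by symbol from a list of 38 names. Of these, 35 had a value, out of 15803 genes measured, and they were covered by 468 of 179496 probe sets with a single gene symbol. Acat2 and Idi1 were not found in the array annotation used here. Acss2 was named only on probe sets that also carry another gene's symbol, so none of the 3 was analysed here. The 35 genes comprise 16 enzymes of the sterol path (5 mevalonate steps and 11 squalene and sterol steps), 6 regulators and sterol carriers, 9 enzymes of the fatty acid path, and 4 genes of lipid handling and efflux.

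NSC34 was made by fusing mouse neuroblastoma cells with spinal cord cells and is used as a motor neuron model. All lines carried a hairpin in the pSUPERIOR vector, introduced by lipofection, and were kept as stable clones under puromycin. The groups were 4 arrays of shTardbp (hairpin against Tardbp), 4 of shGFP (replicates 1, 2, 3 and 5) and 3 of shLuciferase (hairpin against Renilla luciferase; replicates 1, 2 and 4). The labels do not say how many clones or separate cultures a group stands for, so p-values reflect no more than the spread between these samples, and that spread may be technical.

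Cholesterol is built from acetyl-CoA through mevalonate, isoprenoid diphosphates, squalene and lanosterol, and the fatty acid path starts from the same acetyl-CoA. Both paths are driven by the sterol regulatory element binding proteins, the products of Srebf1 and Srebf2. When membrane sterol is low, the escort protein Scap carries these factors to the Golgi for cleavage, and when sterol is high the Insig proteins hold them back in the endoplasmic reticulum. Neurons need cholesterol for membranes and synapses.

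Over all probe sets of an array, medians ran from 6.82 to 6.92 (log2 value) and the 25th percentile ran from 4.46 to 4.57. Gene values are set against this percentile of probe set values below. Tardbp was at 8.80 to 8.997 in shTardbp and at 9.08 to 9.42 in the controls, a log2 change of -0.40 (SE 0.0722, limma adjusted p = 0.000713). Each array's description opens with a code letter whose meaning is not given. The letter is P on all 4 shTardbp arrays and on shLuciferase 4, and C on the other 6 arrays. Only shLuciferase spans both letters, so a fit with the letter as a block takes the letter's effect from those 3 arrays, and in it the change of Tardbp was -0.29 (adjusted p = 0.173). Of 14 motor neuron and neuronal markers, 12 were above the 25th percentile on every array, including Isl1, Slc18a3 and Prph. The motor neuron markers Chat (4.11 to 4.49) and Mnx1 (3.88 to 4.16) were not. Lhx3, counted among those above the 25th percentile, was close to that percentile, at 4.73 to 5.02. The mean of the neuronal list was 8.99 to 9.19 in shTardbp and 8.92 to 9.02 in the controls. The mean of the glial list was 5.53 to 5.69 against 5.46 to 5.61, and that of the fibroblast, muscle and blood list was 4.96 to 5.08 against 5.03 to 5.16. In shTardbp against both controls, 1 of 14 neuronal markers (Slc18a3, by 0.63) and 1 of 10 glial markers rose. Of 13 fibroblast, muscle and blood markers 1 rose and 1 fell (Dcn, by 1.61 on the log2 scale). Of the neuronal markers, 4 rose and 2 fell against shGFP, and 2 rose and 0 fell against shLuciferase. Between the control groups, 2 were higher and 4 lower in shGFP, against 6.26% and 4.82% of all genes. Isl1 was at 8.57 to 8.74 in shGFP and 7.39 to 7.74 in shLuciferase. Above the 25th percentile on every array were also 6 of 10 glial and 8 of 13 fibroblast, muscle and blood markers. Pmp22 of the glial list was at 11.34 to 11.64. Gfap (4.64 to 4.86) was just above the 25th percentile, Mog (4.10 to 4.65) near it and Ptprc (3.82 to 4.04) below it. The part of these cell markers in the results was not tested.

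In shTardbp, 7 of 16 sterol path enzymes fell and 1 rose, while 3 of 9 fatty acid path enzymes rose and none fell. Against the mean of both control groups, 16 of the 35 genes changed (limma adjusted p below 0.05 over all genes): 9 fell and 7 rose. Over all genes 30.5% changed, with 17.0% lower and 13.5% higher. The sterol path enzymes that fell make 43.8% of those measured, 8 did not pass the test, and the median log2 change of all 16 was -0.22. The fatty acid path enzymes that rose make 33.3%, 6 did not pass, and the median was 0.13, while the median over all genes was 0.01. None of the fatty acid enzymes fell by limma, also at an unadjusted p below 0.05, although limma with array weights called Acly lower (adjusted p = 0.0409). Leaving out any single array kept the sterol median between -0.25 and -0.20, with 6 to 8 enzymes lower. The count of fatty acid enzymes higher was less stable: it was 1 without shGFP 3, shTardbp 1, shTardbp 2 or shTardbp 4, and also 1 with probe sets summarised by their median or with the shift of neighbouring genes subtracted. With the letter block, 2 of 16 sterol path enzymes fell, 1 rose and 1 of 9 fatty acid enzymes rose, where 8.14% of all genes fell and 7.74% rose. Without the block, 8 of 16 sterol enzymes fell (50%) and 3 of 9 fatty acid enzymes rose (33.3%) against shGFP alone. Over all genes 15.5% fell and 12.4% rose there. Against shLuciferase alone, 2 of 16 fell (12.5%) and 1 of 9 rose (11.1%), with 14.3% and 11.8% over all genes. The sterol median was -0.25 against shGFP and -0.18 against shLuciferase.

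**Figure D1:**
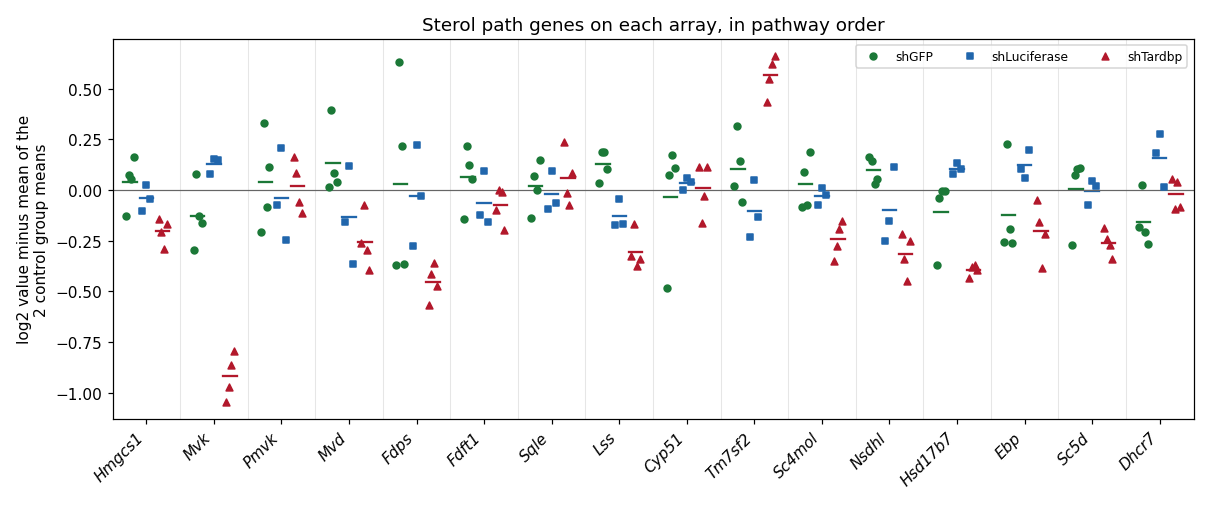
Log2 values of the 16 sterol path enzymes on each of the 11 arrays, in pathway order, relative to the average of the control group means; points are arrays and short bars are group means. Mvk stands lowest in shTardbp and Tm7sf2 is the single enzyme whose 4 shTardbp arrays all lie above the controls.

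The early steps from acetyl-CoA to farnesyl diphosphate gave the largest fall of the whole set. Mvk, the mevalonate kinase, was at 7.70, 7.77, 7.88 and 7.95 (log2 value) on shTardbp arrays, at 8.45, 8.83, 8.62 and 8.58 on shGFP arrays and at 8.83, 8.90 and 8.89 on shLuciferase arrays. All 4 shTardbp arrays lay below all 7 controls. The log2 change came to -0.92 (SE 0.0740, limma adjusted p = 8.09e-07), which is 1.89-fold lower. It fell against each control, by 0.79 against shGFP (adjusted p = 1.05e-05) and by 1.05 against shLuciferase (adjusted p = 2.42e-06) on the log2 scale. With the letter block the change was -0.95 (adjusted p = 0.00114).

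Hmgcs1, the cytosolic synthase that makes hydroxymethylglutaryl-CoA, was at 10.24, 10.18, 10.09 and 10.22 in shTardbp, at 10.25, 10.46, 10.44 and 10.54 in shGFP and at 10.28, 10.41 and 10.34 in shLuciferase. The groups did not overlap, but shGFP 1 lay only just above the highest shTardbp array. The log2 change came to -0.20 (SE 0.0641, limma adjusted p = 0.0280). That call was lost with the letter block (adjusted p = 0.316), and without shGFP 5, shLuciferase 2, shTardbp 2 or shTardbp 3, where adjusted p ran from 0.0510 to 0.107.

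The remaining mevalonate enzymes did not pass the test. Mvd, the decarboxylase that yields isopentenyl diphosphate, had a log2 change of -0.26 (SE 0.100, limma adjusted p = 0.0700), and it passed without shLuciferase 4 (adjusted p = 0.0230) or shTardbp 2 (adjusted p = 0.0403), with arrays centred on their medians (adjusted p = 0.0494), with array weights (adjusted p = 0.0136) and with only genes above the median level. Its change was near 0 with the letter block, at 0.03. Fdps, the farnesyl diphosphate synthase, had 1 probe set close to the 25th percentile, with values from 4.64 to 4.86 in shTardbp and 4.84 to 5.84 in the controls. Its log2 change was -0.45 (SE 0.166, adjusted p = 0.0535), and it passed without shGFP 1, shGFP 2, shGFP 5 or shLuciferase 1, where adjusted p ran from 0.0229 to 0.0452, with arrays centred on their medians (adjusted p = 0.0420) and with the neighbours' shift subtracted (adjusted p = 0.0234). Pmvk, the phosphomevalonate kinase between Mvk and Mvd, stood at 0.02 (95% confidence interval -0.21 to 0.25).

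At the squalene steps, the enzyme that closes the ring fell while those before it did not pass. Fdft1, the squalene synthase, had a log2 change of -0.08 (95% confidence interval -0.24 to 0.09) and Sqle, the squalene epoxidase, one of 0.06 (95% confidence interval -0.10 to 0.22). Lss, the lanosterol synthase, was at 10.25, 10.41, 10.20 and 10.24 in shTardbp, at 10.62, 10.77, 10.77 and 10.69 in shGFP and at 10.41, 10.54 and 10.41 in shLuciferase. The shTardbp arrays lay well below shGFP and touched the lowest shLuciferase arrays. The log2 change came to -0.30 (SE 0.0611, limma adjusted p = 0.00161), made up of -0.43 against shGFP (adjusted p = 0.000299) and -0.17 against shLuciferase (adjusted p = 0.109). The letter block gave -0.25 (adjusted p = 0.161).

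The 3 enzymes that together strip the methyl groups from the fourth carbon of the sterol ring all fell. Sc4mol, the methyl oxidase now named Msmo1, was at 10.12, 10.20, 10.28 and 10.32 in shTardbp and at 10.39 to 10.66 in the 7 controls. Nsdhl, the decarboxylase, was at 10.15, 10.03, 9.92 and 10.12 in shTardbp, at 10.53, 10.51, 10.40 and 10.42 in shGFP and at 10.11, 10.21 and 10.48 in shLuciferase. Hsd17b7, the ketoreductase that ends the reaction, was at 9.11, 9.16, 9.17 and 9.14 in shTardbp, at 9.17, 9.50, 9.53 and 9.53 in shGFP and at 9.62, 9.67 and 9.65 in shLuciferase.

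Sc4mol and Hsd17b7 were lower on every shTardbp array than on any control, Hsd17b7 only just in the case of shGFP 1, and Nsdhl overlapped shLuciferase 1. The log2 change of Sc4mol was -0.24 (SE 0.0670, limma adjusted p = 0.0129), while leaving out shTardbp 1 gave an adjusted p of 0.0505 and the median of the probe sets one of 0.0565. That of Nsdhl was -0.31 (SE 0.0750, adjusted p = 0.00527) and that of Hsd17b7 was -0.40 (SE 0.0713, adjusted p = 0.000707). All 3 passed against shGFP alone. Against shLuciferase alone Hsd17b7 passed, at -0.50 (limma adjusted p = 0.000657). Sc4mol (-0.21, adjusted p = 0.0731) and Nsdhl (-0.22, adjusted p = 0.105) did not pass against shLuciferase. Nsdhl was the member of this trio that kept its call with the letter block, at -0.58 (adjusted p = 0.00535). Hsd17b7 was at -0.40 there (adjusted p = 0.0723) and Sc4mol at -0.25 (adjusted p = 0.218).

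Tm7sf2, a sterol reductase that acts on the product of Cyp51, moved the other way. It was at 7.52, 7.63, 7.70 and 7.74 in shTardbp, at 7.10, 7.40, 7.22 and 7.02 in shGFP and at 6.85, 7.13 and 6.95 in shLuciferase. All shTardbp arrays lay above all controls, and the log2 change came to 0.57 (SE 0.0818, limma adjusted p = 0.000115), 1.48-fold higher. The letter block gave 0.60 (adjusted p = 0.0230). Lbr, the lamin B receptor, catalyses the same reduction as Tm7sf2 and is no member of the set. It fell by 0.46 on the log2 scale (SE 0.100, adjusted p = 0.00272), with 9.04 to 9.52 in shTardbp and 9.47 to 9.92 in the controls, and it was looked up after the values were seen. The 40 measured genes nearest to Tm7sf2 in gene order had a median log2 change of 0.12, with 16 higher and 1 lower.

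Of the remaining sterol enzymes, Sc5d fell and the others did not pass. Sc5d, the sterol desaturase, was at 9.88, 9.83, 9.80 and 9.73 in shTardbp, at 9.80, 10.14, 10.17 and 10.18 in shGFP and at 9.997, 10.11 and 10.09 in shLuciferase. Its log2 change was -0.26 (SE 0.0761, limma adjusted p = 0.0177), with an adjusted p of 0.0608 without shTardbp 4 and 0.213 with the letter block. Only shGFP 1 reached down to the shTardbp values, and the same array was low in Hsd17b7 and in Cyp51.

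Cyp51, the lanosterol demethylase, had a log2 change of 0.01 (95% confidence interval -0.23 to 0.24), Ebp, the sterol isomerase, one of -0.20 (95% confidence interval -0.41 to 0.00; adjusted p = 0.141, or 0.0480 with array weights) and Dhcr7, which makes cholesterol in the final reduction, one of -0.02 (95% confidence interval -0.18 to 0.13). The mean of Dhcr7 in shTardbp lay between the control groups. It was at 9.55 to 9.70 in shTardbp, 9.38 to 9.67 in shGFP and 9.66 to 9.93 in shLuciferase.

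Promoter sequences are shown for 6 sterol path genes because 7 of the 16 enzymes fell and sterol enzymes are known to share promoter elements. They are the 250 bases before the RefSeq start site in the GRCm38.p6 build, 5′ to 3′ on the gene's strand. Capitals mark the box CCAAT or its reverse complement ATTGG, which nuclear factor Y can bind beside the sterol factors, and in Hmgcs1 also a match to the sterol element TCACNCCAC, where N is any base. Mvk, Hmgcs1, Hsd17b7 and Nsdhl fell, Cyp51 did not pass, and Tm7sf2 rose.
Mvk (chr5:114444019-114444268, plus strand): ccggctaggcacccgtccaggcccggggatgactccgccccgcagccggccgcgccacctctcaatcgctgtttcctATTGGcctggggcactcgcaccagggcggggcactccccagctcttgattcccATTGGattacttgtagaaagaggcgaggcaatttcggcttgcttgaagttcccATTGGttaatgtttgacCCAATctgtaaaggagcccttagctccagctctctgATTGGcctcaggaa
Hmgcs1 (chr13:119690101-119690350, plus strand): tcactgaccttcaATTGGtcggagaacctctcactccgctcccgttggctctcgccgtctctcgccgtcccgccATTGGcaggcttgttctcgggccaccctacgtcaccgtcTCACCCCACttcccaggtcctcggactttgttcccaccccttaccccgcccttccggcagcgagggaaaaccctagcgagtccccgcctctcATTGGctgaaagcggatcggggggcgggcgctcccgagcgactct
Hsd17b7 (chr1:169969206-169969455, minus strand): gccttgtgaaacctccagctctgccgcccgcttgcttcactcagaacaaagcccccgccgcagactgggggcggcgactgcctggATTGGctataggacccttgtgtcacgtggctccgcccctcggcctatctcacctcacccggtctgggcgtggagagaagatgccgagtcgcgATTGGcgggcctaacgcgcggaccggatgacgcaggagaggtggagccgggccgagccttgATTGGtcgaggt
Nsdhl (chrX:72918271-72918520, plus strand): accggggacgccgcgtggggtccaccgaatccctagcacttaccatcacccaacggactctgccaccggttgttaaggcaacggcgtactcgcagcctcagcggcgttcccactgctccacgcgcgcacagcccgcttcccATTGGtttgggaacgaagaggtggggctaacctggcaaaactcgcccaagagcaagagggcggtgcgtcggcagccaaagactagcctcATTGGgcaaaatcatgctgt
Cyp51 (chr5:4104698-4104947, minus strand): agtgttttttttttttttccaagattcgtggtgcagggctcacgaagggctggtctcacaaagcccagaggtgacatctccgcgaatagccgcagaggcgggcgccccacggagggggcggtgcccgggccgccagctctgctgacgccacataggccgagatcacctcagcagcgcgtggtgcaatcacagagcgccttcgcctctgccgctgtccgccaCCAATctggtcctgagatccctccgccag
Tm7sf2 (chr19:6067851-6068100, minus strand): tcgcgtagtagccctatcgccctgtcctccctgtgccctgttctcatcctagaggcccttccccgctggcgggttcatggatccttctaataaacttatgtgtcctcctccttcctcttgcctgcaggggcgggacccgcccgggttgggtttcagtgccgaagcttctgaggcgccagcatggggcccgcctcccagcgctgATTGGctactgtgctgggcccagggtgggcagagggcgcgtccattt

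The box CCAAT, searched on both strands, was in a promoter of 13 of 13 sterol path genes that had a RefSeq promoter entry, against 39.6% of 12609 measured genes with an entry. It was in all 7 sterol enzymes that fell, in the 1 that rose and in all 5 that did not pass, so it did not part them. Of the 6 fatty acid path genes with an entry, 2 held it (33.3%). Pmvk and Dhcr7 have more than 1 promoter and held it in 1 of them. The sterol element TCACNCCAC, also searched on both strands, was found in Hmgcs1 alone among 26 members with an entry, and in 1.25% of measured genes. A match is a run of letters and was not tested as a binding site.

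The promoter of Mvk reaches back to Mmab, a cobalamin enzyme gene read in the opposite direction, and the RefSeq start sites of this pair are 242 bases apart. Mmab fell by 0.36 on the log2 scale (SE 0.0714, limma adjusted p = 0.00142), with 7.49 to 7.68 in shTardbp and 7.74 to 8.17 in the controls, so its groups did not overlap either. On the far sides, Ube3b had a log2 change of -0.15 (adjusted p = 0.280) and Trpv4 one of -0.01 (adjusted p = 0.970). Gltp, a glycolipid transfer protein gene that lies beyond Trpv4, fell by 0.44 (SE 0.0679, adjusted p = 0.000209). Over the 40 nearest measured genes the median was 0.06, with 11 higher and 4 lower.

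The regulators split by gene, with the Insig pair moving in opposite directions and the sterol factors themselves level. Insig1, which retains Scap and is itself a target of the sterol factors, was at 9.18, 9.24, 9.17 and 9.16 in shTardbp, at 9.35, 9.67, 9.41 and 9.22 in shGFP and at 9.66, 9.81 and 9.56 in shLuciferase. Insig2, its paralog, was at 8.82, 8.84, 8.87 and 8.86 in shTardbp, at 8.36, 8.57, 8.62 and 8.61 in shGFP and at 8.15, 8.20 and 8.08 in shLuciferase. For Insig1 shGFP 5 fell among the shTardbp values, while for Insig2 all shTardbp arrays stood above all controls.

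The log2 change of Insig1 was -0.36 (SE 0.0797, limma adjusted p = 0.00340). It passed against shLuciferase, at -0.49 (adjusted p = 0.00186), and not against shGFP, at -0.23 (adjusted p = 0.0803), and the letter block gave -0.21 (adjusted p = 0.380). The log2 change of Insig2 was 0.51 (SE 0.0617, adjusted p = 2.89e-05), 1.42-fold higher. It rose by 0.31 against shGFP (adjusted p = 0.00417) and by 0.71 against shLuciferase (adjusted p = 1.41e-05), and the control groups differed from each other by 0.40 (SE 0.0749, adjusted p = 0.00315). With the letter block Insig2 was at 0.58 (adjusted p = 0.00510).

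Srebf2, the factor that chiefly drives the sterol path, had a log2 change of -0.02 (95% confidence interval -0.13 to 0.10) on its 1 probe set. Srebf1, the factor more tied to fatty acids, stood at 0.02 (95% confidence interval -0.17 to 0.21) and Scap at -0.06 (95% confidence interval -0.22 to 0.09). These are transcript levels, and the cleaved forms of the factors are proteins that the arrays do not measure. Stard4, a cytosolic sterol carrier, was at 8.56 to 8.64 in shTardbp and at 8.61 to 8.99 in the controls. Its log2 change was -0.21 (SE 0.0724, limma adjusted p = 0.0371). That call was lost on leaving out any of 9 arrays (adjusted p from 0.0538 to 0.0908), all but shGFP 1 and shLuciferase 4, and with the letter block (adjusted p = 0.860).

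**Figure D2:**
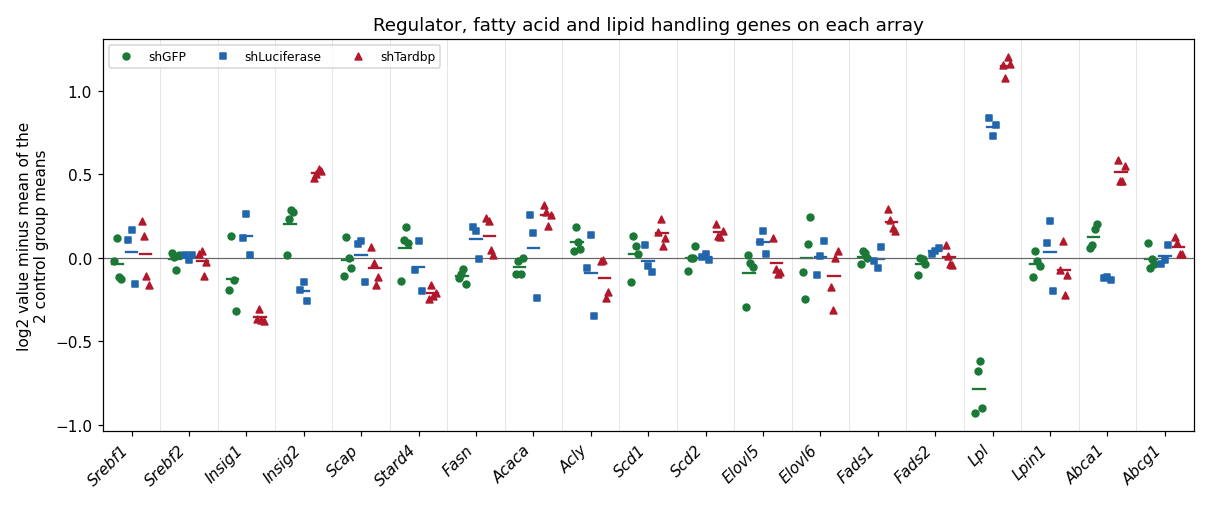
Log2 values of the regulator, fatty acid and lipid handling genes on each array, relative to the average of the control group means; points are arrays and short bars are group means. Lpl shows the widest gap between the control groups, and Insig2 and Abca1 stand above both of them in shTardbp.

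In the fatty acid path, the enzymes that supply and build the chain moved little. Acaca, the acetyl-CoA carboxylase that makes malonyl-CoA, was at 9.72, 9.68, 9.60 and 9.66 in shTardbp, at 9.31, 9.39, 9.31 and 9.41 in shGFP and at 9.67, 9.56 and 9.17 in shLuciferase. The shTardbp arrays lay above all shGFP arrays and overlapped shLuciferase 1. The log2 change came to 0.26 (SE 0.0819, limma adjusted p = 0.0282). With the letter block it was 0.63 (adjusted p = 0.00141), and shLuciferase 4, the control with the letter P, was the lowest of the 11 arrays. Without shGFP 3, shTardbp 1, shTardbp 2 or shTardbp 4 the call was lost, with adjusted p from 0.0501 to 0.0793, and when probe sets were summarised by their median (adjusted p = 0.0776).

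Fasn, the fatty acid synthase, had a log2 change of 0.13 (SE 0.0641, limma adjusted p = 0.157). It stood apart from shGFP alone, 0.24 higher (adjusted p = 0.0216), and was level with shLuciferase at 0.02 (adjusted p = 0.917). Acly, which splits citrate into cytosolic acetyl-CoA for both paths, had a log2 change of -0.12 (95% confidence interval -0.30 to 0.06).

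Among the enzymes that desaturate and elongate the chain, Fads1 and Scd2 rose by small amounts. Fads1, the delta-5 desaturase of polyunsaturated fatty acids, was at 11.58, 11.51, 11.46 and 11.45 in shTardbp, at 11.25 to 11.32 in shGFP and at 11.22 to 11.35 in shLuciferase. The log2 change came to 0.21 (SE 0.0535, limma adjusted p = 0.00733), the same size against each control (0.21 and 0.22). Scd2, the stearoyl-CoA desaturase of brain, was at 12.96, 12.89, 12.88 and 12.92 in shTardbp and at 12.68 to 12.83 in the controls, a log2 change of 0.16 (SE 0.0514, adjusted p = 0.0340). Scd2 passed against neither control alone, at 0.16 against shGFP (limma adjusted p = 0.0540) and 0.15 against shLuciferase (adjusted p = 0.100).

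All shTardbp arrays lay above all controls in both genes. Scd2 lost its call on leaving out any of 7 arrays (shGFP 3, shLuciferase 1, shLuciferase 2 or any shTardbp array; adjusted p from 0.0525 to 0.0950), when probe sets were summarised by their median (adjusted p = 0.0901) and with arrays centred on their medians (adjusted p = 0.0535). With the letter block Fads1 was at 0.12 (adjusted p = 0.420) and Scd2 at 0.18 (adjusted p = 0.233). Both genes sit among genes that were higher too: the 40 nearest to Fads1 had a median of 0.06, with 10 higher and 3 lower. With the neighbours' shift subtracted both calls were lost, Fads1 at 0.11 (adjusted p = 0.153) and Scd2 at 0.060 (adjusted p = 0.427). Fads2, which acts before Fads1 and lies next to it, stood at 0.00 (95% confidence interval -0.11 to 0.11). Scd1 had a log2 change of 0.14 (95% confidence interval 0.00 to 0.28, adjusted p = 0.122), Elovl5 one of -0.03 (95% confidence interval -0.19 to 0.12) and Elovl6 one of -0.11 (95% confidence interval -0.32 to 0.09).

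Lipid handling held the largest rise of the set. Lpl, the lipoprotein lipase that frees fatty acids from circulating lipoproteins, was at 7.99, 7.91, 8.04 and 8.0 in shTardbp, at 5.91, 6.16, 6.22 and 5.93 in shGFP and at 7.67, 7.56 and 7.63 in shLuciferase. The shTardbp arrays lay above all controls, but the control groups lay further from each other than shLuciferase did from shTardbp. The log2 change against both was 1.15 (SE 0.0693, limma adjusted p = 7.12e-08), made up of 1.93 against shGFP (adjusted p = 1.50e-09) and 0.36 against shLuciferase (adjusted p = 0.00536). shGFP minus shLuciferase was -1.57 (SE 0.0841, adjusted p = 1.16e-07).

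Abca1, the pump that exports cholesterol to apolipoproteins and is a target of the liver X receptors, was at 9.18, 9.05, 9.06 and 9.15 in shTardbp, at 8.66, 8.67, 8.77 and 8.80 in shGFP and at 8.47, 8.48 and 8.46 in shLuciferase. Both control groups lay below every shTardbp array, and shLuciferase was the lower of them. The log2 change came to 0.51 (SE 0.0549, limma adjusted p = 9.64e-06), 1.43-fold higher, and the letter block gave 0.53 (adjusted p = 0.00474). Its 40 nearest genes went the other way, with a median of -0.06, 1 higher and 15 lower. Abcg1, a related pump, was near the 25th percentile at 4.61 to 4.80 on all arrays, with a log2 change of 0.06 (95% confidence interval -0.06 to 0.18). Lpin1, a phosphatidate phosphatase, stood at -0.08 (95% confidence interval -0.25 to 0.10).

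Set against each control alone, more members passed against shGFP than against shLuciferase. Against shGFP 9 members fell and 7 rose (15.5% of all genes fell and 12.4% rose, 27.9% in all). Against shLuciferase 3 fell and 5 rose (14.3% and 11.8% of all genes, 26.1% in all). These comparisons share the shTardbp arrays. Single arrays moved the counts: against shGFP 5 fell without shGFP 2 or shGFP 3 and 4 rose without shTardbp 1, and against shLuciferase 5 fell without shGFP 2. Against both controls one at a time, Mvk and Hsd17b7 fell, and Tm7sf2, Insig2, Fads1, Lpl and Abca1 rose, where 9.39% and 7.69% of all genes did so. Another 9 members passed against shGFP and not against shLuciferase: Hmgcs1, Mvd, Lss, Sc4mol, Nsdhl, Sc5d and Stard4 lower, and Fasn and Acaca higher. For 1 member, Insig1, it was shLuciferase alone, and none passed in opposite directions by limma. Scd2 passed against neither control alone. Whether the change differs between the controls is the difference between the control groups themselves: Lss (0.26 higher in shGFP, adjusted p = 0.0386), Insig2 and Abca1 were higher and Lpl and Dhcr7 (0.32 lower, adjusted p = 0.0332) were lower in shGFP than in shLuciferase, 3 and 2 of 35 members against 6.26% and 4.82% of all genes (11.1% in all). The count lower in shGFP was 5 without shGFP 2, 4 without shLuciferase 4, and 1 without shGFP 1, shGFP 3, shGFP 5, shLuciferase 1 or shLuciferase 2. The count higher was 2 without shGFP 2, shLuciferase 2, shLuciferase 4, shTardbp 3 or shTardbp 4, and 1 without shGFP 3, shGFP 5 or shLuciferase 1.

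**Figure D3:**
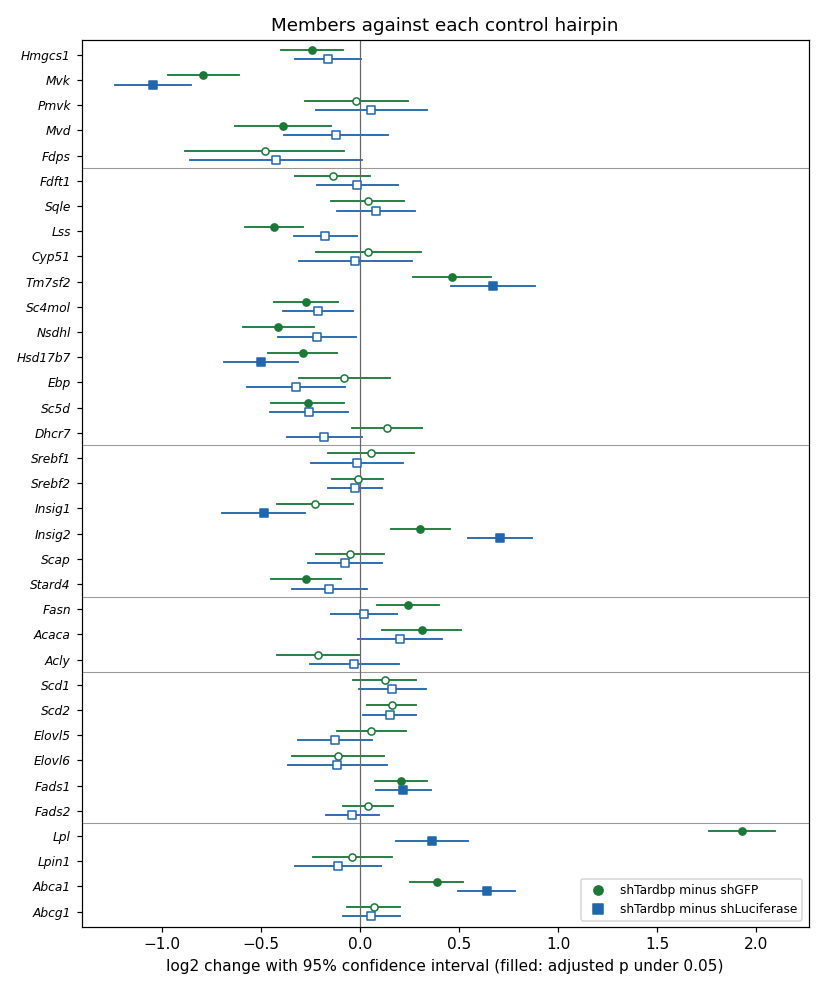
Log2 change of the 35 members in shTardbp against shGFP (circles) and against shLuciferase (squares), with 95% confidence intervals; filled symbols have a limma adjusted p below 0.05. Mvk is at -0.79 and -1.05, Insig2 at 0.31 and 0.71, and Lpl at 1.93 and 0.36.

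Counted by array without a model, 4 members (Hmgcs1, Mvk, Sc4mol and Hsd17b7) had all shTardbp arrays below all 7 controls, against 9.82% of all genes. In 6 members (Tm7sf2, Insig2, Scd2, Fads1, Lpl and Abca1) all shTardbp arrays lay above all controls, against 8.45%.

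Because all shTardbp arrays carry the letter P, the members were also read with the letter as a block and within the P arrays. Of the 16 members that changed, 7 kept their call with the letter block: Mvk, Nsdhl, Tm7sf2, Insig2, Acaca, Lpl and Abca1. That is 43.8% of the members' calls, and 43.7% of the calls over all genes were kept, so the members' share was at the background. The other 9 lost it, and no further member passed. Within the P arrays the control is shLuciferase 4 alone, so there is no test there. The mean of shTardbp minus shLuciferase 4 was -1.07 for Mvk, -0.43 for Nsdhl, 0.70 for Tm7sf2, 0.77 for Insig2, 0.50 for Acaca, 0.35 for Lpl and 0.65 for Abca1. Without shLuciferase 4 altogether, 10 members fell and 7 rose, and 8 sterol path enzymes fell. In that fit 2795 of all 15803 genes fell and 2189 rose, against 2684 and 2141 in the main fit.

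**Figure D4:**
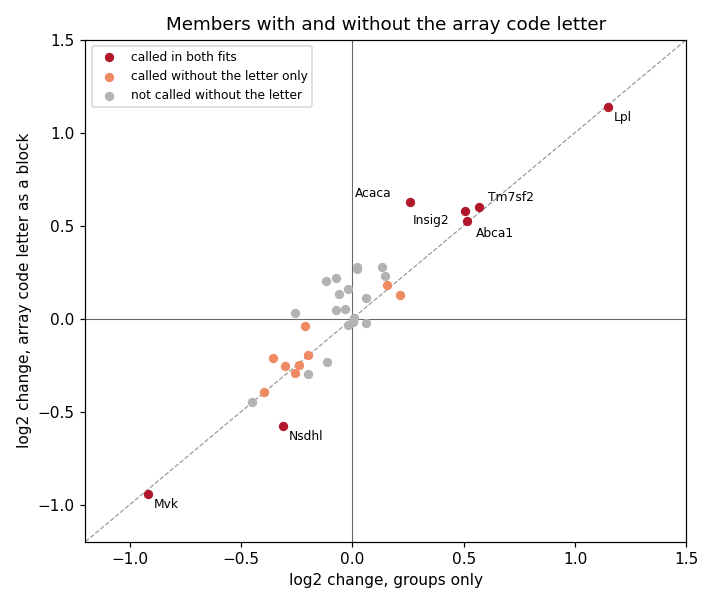
Log2 change of each member in shTardbp against both controls, fitted with groups only (x axis) and with the code letter as a block (y axis); the dashed line marks equal values. The 7 named genes were called in both fits, and most of them lie close to the line, Acaca (0.26 and 0.63) and Nsdhl (-0.31 and -0.58) being farther from it.

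Probe sets show how far the change varied among those of each gene, without regard to their position. Over all probe sets 7.48% rose and 8.56% fell by themselves. In Mvk 10 of 10 fell, with log2 changes from -1.15 to -0.59. In Tm7sf2 10 of 13 rose, in Insig2 8 of 9, in Lpl 12 of 14 and in Abca1 26 of 35. Their ranges were wide, from 0.02 to 1.19 in Tm7sf2, -0.36 to 0.74 in Insig2, 0.02 to 1.69 in Lpl and 0.00 to 1.09 in Abca1. Hsd17b7 had 7 of 12 lower, Insig1 5 of 9 and Lss 8 of 23, and in Lss all 23 had a negative change. The small rises were spread in the same way, with 16 of 16 probe sets of Fads1 and 7 of 7 of Scd2 above 0, although only 2 of Fads1 and 0 of Scd2 passed the limma test. In Fasn 47 of 48 were above 0 and none passed. In Hmgcs1 3 of 12 fell and 1 had a positive change, of 0.51. In Stard4, lower as a gene, 0 of 8 passed. The probe sets of 1 gene come from the same 11 RNA samples and are not replicates.

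**Figure D5:**
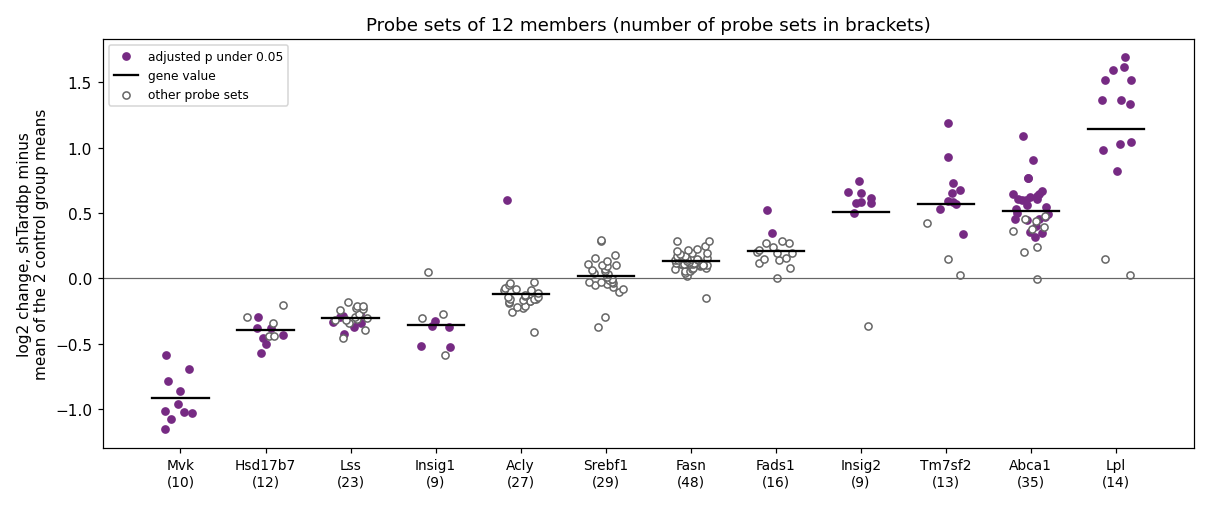
Log2 change of every probe set of 12 members in shTardbp against both controls; filled points have a limma adjusted p below 0.05 and black bars are the gene values. All 10 probe sets of Mvk lie below -0.5, and a single probe set of Acly lies at 0.60 while the other 26 are below 0.

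TDP-43 acts on splicing, so each probe set was also compared with the mean of its gene's tested probe sets on the same array, called the gene mean here. That mean leaves out probe sets of low signal and so differs from the gene value. Among 440 probe sets of 32 members, 4 passed in 3 genes, against 0.846% of all probe sets tested, so the members' share was near the background. In Acly, probe set 5575501 was 0.72 higher than the gene mean on the log2 scale (SE 0.121, limma adjusted p = 0.0208). Its values were 5.01 to 5.45 in shTardbp and 4.08 to 5.25 in the controls, close to the 25th percentile of all probe sets. In Abca1, probe set 4954173 was at 9.24 to 9.39 in shTardbp and 9.26 to 9.39 in the controls while the gene rose, a usage difference of -0.52 (SE 0.0653, adjusted p = 0.00482), and probe set 4436356 was 0.39 higher than the gene mean (adjusted p = 0.0370). In Lpl, probe set 4827892 rose by 0.82, a usage difference of -0.50 from the gene mean (adjusted p = 0.0466). By diffSplice of limma, another usage test, Acly 5575501 (adjusted p = 1.46e-05) and Abca1 4954173 (adjusted p = 0.0115) passed too. Abca1 4436356 (adjusted p = 0.118) and Lpl 4827892 (adjusted p = 0.0773) did not. Other member probe sets passed by diffSplice only, among them 5180606 of Hmgcs1 (adjusted p = 6.38e-06, or 0.0954 in the main usage test). With the letter block 0 of the 440 member probe sets passed the limma usage test. No probe set is assigned to an exon, since positions were not used here.

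Other genes of the same pathways were read from 4 lists of neighbouring functions. Of 19 measured genes for other sterol, isoprenoid and sterol factor steps, 7 fell (36.8%) and 3 rose (15.8%), with a median of -0.08. Fntb, the beta subunit of farnesyltransferase, which attaches farnesyl groups to proteins, fell by 0.55 (SE 0.0616, limma adjusted p = 1.38e-05). Npc1, which moves cholesterol out of lysosomes, rose by 0.54 (SE 0.0745, adjusted p = 7.68e-05). Mbtps2, the site-2 protease that makes the final cut of the sterol factors, rose by 0.43 (SE 0.0590, adjusted p = 8.42e-05).

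Of 33 other genes of fatty acid synthesis and lipid assembly, 7 rose and 7 fell (21.2% each). The elongases of long chains Elovl3 (-0.93, adjusted p = 2.39e-06) and Elovl2 (-0.89, adjusted p = 3.02e-05) fell, the former from 5.31 to 5.87 in the controls to 4.36 to 4.66, around the 25th percentile. Acacb, the carboxylase of the mitochondrial surface (0.47, adjusted p = 1.69e-05), and Scd3, a desaturase gene beside Scd2 (0.59, adjusted p = 7.88e-05), rose. Scd3 has close paralogs, so its probe sets may share signal with them.

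Of 17 fatty acid breakdown genes 5 rose and 3 fell. Cpt1a, the carnitine transferase that admits fatty acids to mitochondria, rose from 10.12 to 10.35 in the controls to 10.91 to 10.99, by 0.70 (SE 0.050, limma adjusted p = 2.91e-07). Its neuronal paralog Cpt1c rose by 0.42 (adjusted p = 0.000105) and the medium-chain dehydrogenase Acadm by 0.57 (adjusted p = 4.28e-05), while the long-chain dehydrogenase Acadl fell by 0.91 (SE 0.0781, adjusted p = 1.52e-06). Of 13 genes of the liver X receptors and lipid efflux 4 rose and 2 fell. The phospholipid transfer protein gene Pltp rose by 0.87 (SE 0.0727, adjusted p = 1.16e-06), and the lipid pumps Abca7 and Abcg4 rose by 0.62 (adjusted p = 2.28e-05) and 0.41 (adjusted p = 0.00110). Rxra, the partner of these receptors, fell by 0.51 (adjusted p = 2.64e-05). Each list is read against 13.5% higher and 17.0% lower over all genes.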

How the data were processed

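RNA of 11 NSC34 samples was measured on Affymetrix arrays, and the deposited values are log2 expression values per probe set. Partek and RMA are named, with no version given, per the submitters' processing notes. The sources used here give neither the background correction nor the genome build of the annotation. Of 194293 probe sets, 179496 had 1 gene symbol, 1328 several and 13469 none in the platform annotation. A gene's value was the mean over its single-symbol probe sets. Symbols can be old; RefSeq (GRCm38.p6) gave current names, gene order and promoters.

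Gene values were modelled by group, all 3 together and with no filter on low values, over 15803 genes (lmFit and eBayes of limma 3.58.1, R 4.3.3), with Benjamini-Hochberg adjustment over all genes and a threshold of 0.05. The main contrast set shTardbp against the average of both control group means. Intervals are 95% and unadjusted. Levels of different genes were not compared. The number of arrays limits the precision.

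Probe set usage was tested on probe sets above the 25th percentile, in genes above the median with at least 3 such probe sets. Promoter motifs were counted by exact letters. The scripts were tested on simulated data. All members are named, with Tardbp, Mmab, up to 4 genes of each neighbouring list by smallest adjusted p, and the genes beside a member. Members, lists and the rule for names were chosen with earlier results of these data known. Same-numbered arrays of different groups were not treated as pairs. Alternatives were another summary of probe sets, filters, normalizations and variance models, the array code letter or replicate number as a block, subtraction of the neighbours' shift, and each array left out. All per-sample columns were used.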

Additional observations from a re-analysis of the deposited data

Results flagged for a closer look

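Each of the 35 members was checked for a single array far from the others in the groups of 4, shGFP and shTardbp, which makes 70 checks. Chance sets off about 1 in 20 such checks, and 5 were set off here. In shGFP, array 1 was low in 3 sterol enzymes: Cyp51 at 9.62 (the others at 10.18 to 10.28), Hsd17b7 at 9.17 (9.50 to 9.53) and Sc5d at 9.80 (10.14 to 10.18). Array 2 of shGFP was high in Ebp at 7.29 (6.802 to 6.87). Array 1 of shTardbp was high in Elovl5 at 10.49 (10.27 to 10.30). Without shGFP 1, the counts against both controls were 10 lower and 7 higher, where 2676 of all 15803 genes fell and 2125 rose.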

How the results depend on the processing

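Mvk, Nsdhl, Tm7sf2, Insig2, Lpl and Abca1 kept their direction and call under all 21 alternatives run for single members. Under the block by array code letter, 2 members fell against both controls, 3 rose and 2 fell against shGFP, 4 were lower in shGFP than in shLuciferase, 2 sterol path enzymes fell, 1 fatty acid enzyme rose, 0 probe sets passed for usage and Tardbp was at -0.29 (adjusted p = 0.173). That block also turned the sign of members that had not passed: Mvd 0.031, Fdft1 0.045, Dhcr7 0.16, Scap 0.13, Acly 0.20, Elovl5 0.052, Fads2 -0.019, Lpin1 0.22 and Abcg1 -0.026. It has 1 control array with the letter P, and the cause of these moves was not tested. The median of the probe sets left 1 fatty acid enzyme higher and put Sqle at -0.038 and Cyp51 at -0.0056. Subtracting the shift of neighbouring genes left 1 fatty acid enzyme higher with a path median of 0.051, and put Pmvk at -0.14 and Fads2 at -0.12. Array weights called 1 fatty acid enzyme lower with a path median of 0.073, and put Pmvk at -0.031, Cyp51 at -0.038, Srebf1 at -0.047 and Fads2 at -0.014.

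With the replicate block, 6 members rose and 9 fell against both controls: Hmgcs1, Stard4 and Scd2 no longer passed (adjusted p from 0.0547 to 0.0785), while Mvd (0.0166) and Fdps (0.00386) did, and between the control groups 0 were higher and 1 lower in shGFP. The block rests on a number only: the deviations of same-numbered arrays correlated at -0.0561 to 0.263. Leaving out 1 array at a time gave 4 to 8 members higher and 5 to 10 lower against shGFP, 3 to 5 lower against shLuciferase, 1 to 3 higher and 1 to 5 lower between the controls, and 1 to 3 fatty acid enzymes higher. Members that had not passed changed sign there: Pmvk ran from -0.033 to 0.080, Sqle from -0.00056 to 0.10, Cyp51 from -0.066 to 0.067, Dhcr7 from -0.058 to 0.0089, Srebf1 from -0.046 to 0.080, Srebf2 from -0.038 to 0.012 and Fads2 from -0.024 to 0.016. Signal close to the 25th percentile limits Fdps and Abcg1.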
